A study of Mus musculus with 15 samples.

Results

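The insulin-like growth factor (IGF) system was followed at the RNA level in the periprostatic fat of male mice, through its 2 ligands, 2 receptors and 6 binding proteins. The 10 genes, Igf1, Igf2, Igf1r, Igf2r, Igfbp2, Igfbp3, Igfbp4, Igfbp5, Igfbp6 and Igfbp7, were taken by gene symbol from the 23995 symbols listed for each of 15 libraries. Periprostatic fat is the white adipose tissue around the prostate. The mice were C57BL/6J males (strain C57BL/6 in the sample labels), 26 weeks old when tissue was taken, with 5 mice in each of 3 groups. LFD mice ate a diet with 10 kcal% fat from 6 weeks of age and had no pellet. HFD placebo mice ate a diet with 60 kcal% fat from the same age and carried a placebo pellet under the skin for the last 8 weeks. HFD estradiol mice had the same food as the placebo mice, and their pellet, carried for the same 8 weeks, held 0.25 mg of estradiol for release over 60 days. Since LFD mice had no pellet, diet and pellet cannot be told apart in comparisons with LFD.

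IGF1 and IGF2 are small secreted proteins related to insulin. Both act through the IGF1 receptor, a tyrosine kinase at the cell surface, whereas the IGF2 receptor, which is also the cation-independent mannose 6-phosphate receptor, carries IGF2 and newly made lysosomal enzymes to lysosomes and does not signal as a kinase. The binding proteins hold IGFs outside cells and are cut by proteases that free the ligand. In fat, IGF1 made locally under growth hormone acts on adipocyte precursors, and IGF2 and IGF2R are encoded by imprinted genes.

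Values are FPKM, a fragment count corrected for transcript length and library size, brought to a common scale with 1 median-of-ratios factor per library. Differences are log2 fold changes of scaled FPKM + 1, which understate the change of genes with low values, and were tested with limma across 5615 genes with Benjamini-Hochberg adjustment and a threshold of 0.05. Of the 10 genes, 6 passed the filter on low values (5 or more libraries with 1 or more scaled FPKM) and 4 did not. Libraries are named by group and mouse number, and errors are standard deviations over 5 mice.

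Promoter windows from RefSeq (GRCm38.p6, the assembly of mm10) were found for all 10 genes, 14 windows in all, each running from 250 bases before to 50 bases after a RefSeq transcription start. The ends of 4 windows, those of Igf1r, Igf2r and Igfbp6 and 1 of Igf2, were not found in GENCODE transcripts of these genes, so their starts differ between the annotations. The windows of Igf1, Igfbp4 and Igf2r are shown because, of the 6 genes tested, these 3 separated the placebo group from both other groups. Capitals mark GGTCA, one arm of the palindrome that estrogen receptors bind, in Igf1, TATAAA in Igfbp4, and TCACGTGA, the letters of the CLEAR element found at lysosomal genes, in Igf2r. All are written 5′ to 3′ on the strand of the gene: chr10:87860861-87861160, plus strand, for Igf1, chr11:99040994-99041293, plus strand, for Igfbp4, and chr17:12769657-12769956, minus strand, for Igf2r.
Igf1: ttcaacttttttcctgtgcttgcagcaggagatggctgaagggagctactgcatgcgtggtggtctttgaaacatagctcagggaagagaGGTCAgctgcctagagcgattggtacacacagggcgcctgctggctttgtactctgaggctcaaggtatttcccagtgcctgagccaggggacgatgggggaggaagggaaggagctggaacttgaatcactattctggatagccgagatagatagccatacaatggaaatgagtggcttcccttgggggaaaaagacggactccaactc
Igfbp4: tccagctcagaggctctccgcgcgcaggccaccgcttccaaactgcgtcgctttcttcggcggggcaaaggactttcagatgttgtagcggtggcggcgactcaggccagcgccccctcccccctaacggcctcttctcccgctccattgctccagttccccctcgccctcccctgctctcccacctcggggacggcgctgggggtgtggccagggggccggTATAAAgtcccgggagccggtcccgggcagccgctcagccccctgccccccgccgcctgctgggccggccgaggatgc
Igf2r: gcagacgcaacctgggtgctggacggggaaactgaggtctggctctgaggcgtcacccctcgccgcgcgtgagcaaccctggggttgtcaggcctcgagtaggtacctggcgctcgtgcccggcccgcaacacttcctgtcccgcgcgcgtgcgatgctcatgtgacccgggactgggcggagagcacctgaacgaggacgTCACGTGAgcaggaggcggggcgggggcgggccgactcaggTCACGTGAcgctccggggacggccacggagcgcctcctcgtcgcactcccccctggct

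Motifs were searched on both strands. The Igf2r window held TCACGTGA 2 times, at bases 202 to 209 and 243 to 250 counted from its 5′ end. Of 32851 windows of this length, 0.974% held TCACGTGA at least once and 19 held it at least 2 times, and no other window of the 10 genes held it. The second copy overlaps a GGTCA at bases 241 to 245, and the Igf2r window holds another, as TGACC, at bases 164 to 168. Only 1 motif is marked per window, so the capitals do not show every match. The letters GGTCA were in 8 of the 14 windows, from 7 genes, and in 40.5% of all windows, so their presence is common. The full palindrome, GGTCA followed after any 3 bases by TGACC, was in 0 of the 14 windows and in 0.07% of all windows. TATAAA was in the windows of Igfbp4 and Igfbp6 and in 13.6% of all windows, and the GC-box letters GGGCGG were in 6 of the 14 and in 35.7% of all. These matches describe letters and show no binding.

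The deposited FPKM summed to between 34449 and 105910 per library, highest in the 2 placebo libraries of sequencing lane 6, and 10.2% to 53.1% of each sum was Mir6236. On the FPKM as deposited, the median log2 fold change of all tested genes lay at 0.77 in HFD placebo minus LFD and at 0.49 in HFD estradiol minus LFD, and 99.4% of the genes called in the former were higher. After scaling the medians were -0.014 and -0.0049. All LFD libraries came from lane 5, all estradiol libraries from lane 6, and the placebo libraries from both (3 and 2), as read from the names of the files. Depth was estimated from the spacing of low values: at 1 scaled FPKM, a transcript of 2 kb was covered by about 20.5 to 219 fragments. LFD 5 stood apart in a list of 11 prostate epithelium markers, which summed to 129 in it and to at most 0.625 in every other library. Of this sum 125 was Spink3 alone, while the prostate markers Pbsn and Msmb were listed at 0 in all LFD libraries. These 3 genes were chosen after their values were seen. The rest of the list was higher in LFD 5 too, since what remains beside Spink3 exceeds 0.625. All 14 mature adipocyte markers were detected in every group, and their sum ran from 979 to 2710. The 3 comparisons share groups, so falls against LFD and rises under estradiol rest on the same 5 placebo libraries.

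By length-corrected level, 2 binding proteins were the most abundant transcripts of the system. Igfbp7 led in every group, followed by Igfbp4, and the ranges of these 2 did not overlap each other or the next gene, Igfbp5, in any group. Igfbp5, Igf1 and Igfbp6 overlapped one another in LFD and in placebo, with means between 4.64 and 7.78 scaled FPKM. Igf2r came next and was above Igfbp3 in all 15 libraries. The 4 genes below the filter, Igfbp3, Igf1r, Igf2 and Igfbp2, had group means from 0.0946 to 0.892 scaled FPKM. In placebo the ranges of Igf2r and Igfbp6 overlapped, which they did not in LFD.

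**Figure D1:**
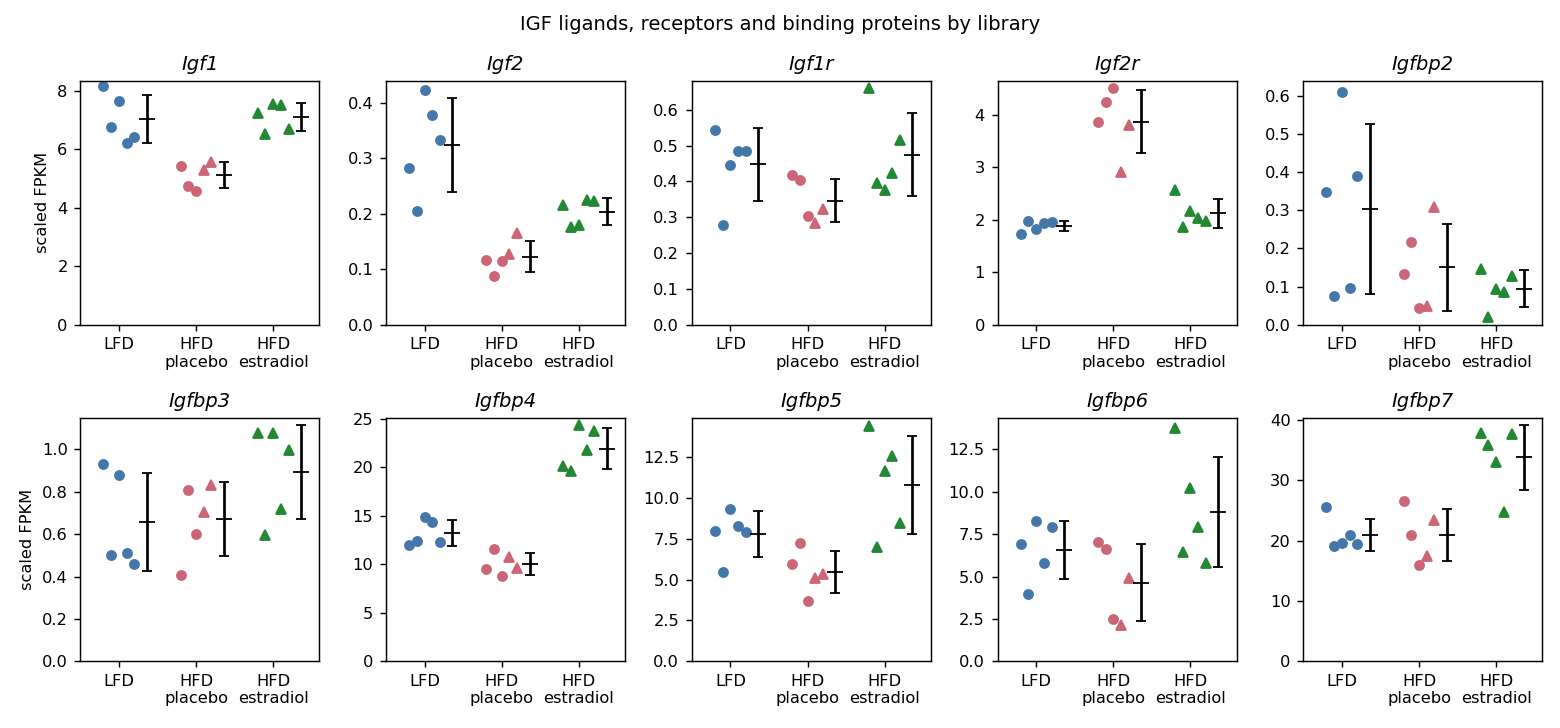
Scaled FPKM (vertical axes, each from 0) of the 10 genes in every library by group (horizontal axis), with circles for lane 5, triangles for lane 6 and black bars for the mean and SD of 5 mice. The placebo points of Igf2r (2.91 to 4.50) lie above all others, those of Igf1 (4.56 to 5.58) lie below all others, and the estradiol points of Igfbp4 (19.6 to 24.3) lie above all others.

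In placebo against LFD, 1 of the 6 tested genes was called higher and 2 lower, where 43.3% of all tested genes were called, 21.3% higher and 22% lower. Igf2r rose, and Igf1 and Igfbp4 fell. In estradiol against placebo, 5 were called higher (Igf1, Igfbp4, Igfbp5, Igfbp6 and Igfbp7) and Igf2r lower, where 30.4% of all tested genes were called, 14.3% higher and 16% lower. In estradiol against LFD, Igfbp4 and Igfbp7 were called higher and none lower, where 7.69% were called, 3.95% higher and 3.74% lower. Groups did not overlap for 3, 3 and 1 of the 6 genes in the 3 comparisons, where 27.6%, 21.2% and 8.05% of all tested genes did not overlap. Split by direction, these shares were 14.6% higher and 13% lower, 10% higher and 11.2% lower, and 4.2% higher and 3.85% lower. The median log2 fold change of the 6 was -0.38, 0.76 and 0.38, beside -0.014, 0.0082 and -0.0049 over all tested genes. Without LFD 5, 3, 6 and 2 of the 6 were called.

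**Figure D2:**
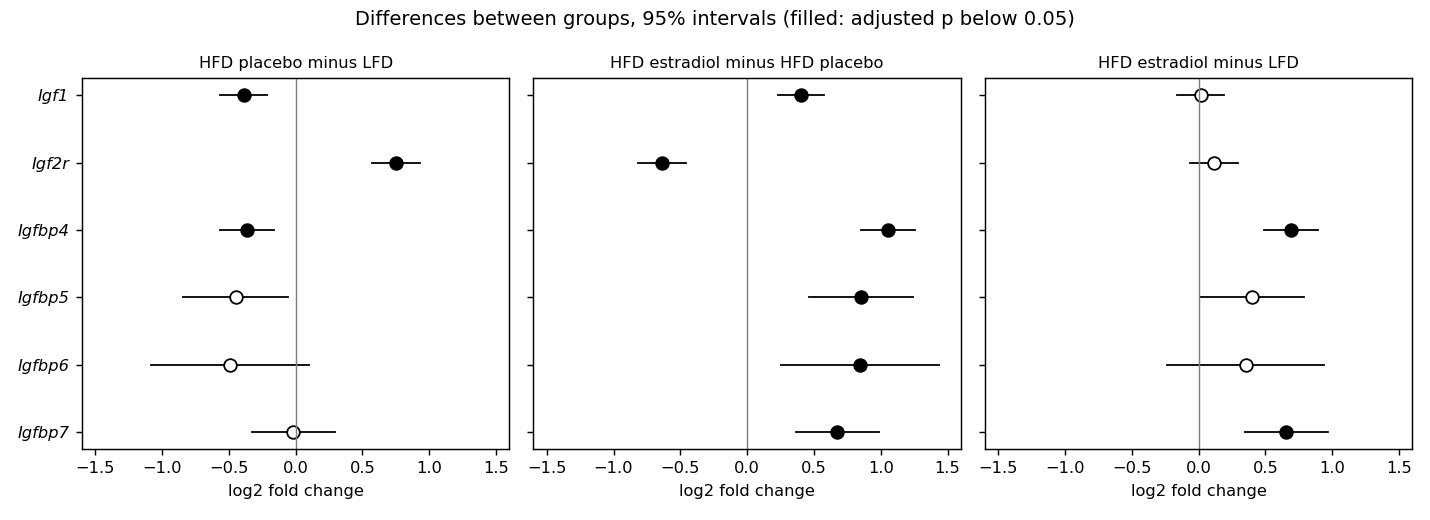
Log2 fold change of scaled FPKM + 1 (horizontal axis) with its 95% interval from limma for the 6 tested genes (vertical axis) in the 3 comparisons, filled where the adjusted p was below 0.05. In this scaling Igf2r lies on the opposite side of 0 from Igf1 and Igfbp4 for placebo against LFD, where Igf1 and Igfbp4 were at 0.62 and 0.71 on the FPKM as deposited and at 0.0013 and 0.052 with a constant sum.

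Igf1, the main postnatal ligand, lies at chr10:87858265-87937042 on the plus strand. It read 8.16, 6.75, 7.66, 6.23 and 6.44 scaled FPKM in LFD mice 1 to 5. In placebo mice 1 to 5 it read 5.44, 4.76, 4.56, 5.31 and 5.58, and in estradiol mice 1 to 5 it read 7.26, 6.54, 7.54, 7.52 and 6.69. Every placebo library was below every library of both other groups, which overlapped each other. Igf1 fell in placebo against LFD, from 7.05 ± 0.828 to 5.13 ± 0.443 (SD, n = 5 each), a log2 fold change of -0.39 (SE 0.082, limma adjusted p = 0.00119), although it was 0.62 on the FPKM as deposited and 0.0013 after scaling to a constant sum. Relative to the median of all genes the change was -0.38 in the main scaling, -0.14 as deposited and -0.28 with a constant sum. Under estradiol Igf1 rose to 7.11 ± 0.470, 0.40 above placebo (SE 0.082, limma adjusted p = 0.00138). Estradiol and LFD differed by 0.015, with a 95% interval from -0.16 to 0.19 (limma adjusted p = 0.934). Within lane 6, which leaves 2 placebo libraries, the rise under estradiol was 0.33 with a limma adjusted p of 0.0655, and with lane as a term the adjusted p was 0.0560 (range over 28 alternatives 0.000828 to 0.926). Within lane 5 placebo against LFD gave -0.44 (limma adjusted p = 0.0103, range over 28 alternatives 0.000682 to 0.996).

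A rank within a library needs no scaling between libraries. Among the tested genes Igf1 stood at the 88.0th to 91.5th percentile in LFD, the 81.2nd to 85.9th in placebo and the 88.7th to 90.7th in estradiol. By rank, too, every placebo library was below the others.

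Igf2, the fetal growth factor, is transcribed from chr7:142650766-142666816 on the minus strand and was low throughout. It read 0.282, 0.205, 0.423, 0.378 and 0.332 scaled FPKM in LFD mice 1 to 5. In placebo it read 0.117, 0.0871, 0.115, 0.128 and 0.165, and in estradiol 0.215, 0.175, 0.179, 0.225 and 0.224. The placebo libraries lay below all others, and estradiol overlapped LFD. Since Igf2 did not pass the filter, it was tested in a fit of 18880 genes without one, in which 20.7% (11% higher, 9.67% lower), 13.8% (5.71% higher, 8.09% lower) and 2.11% (1.13% higher, 0.98% lower) of genes were called in the 3 comparisons. There Igf2 fell in placebo against LFD by 0.24 on the log2 scale (SE 0.040, limma adjusted p = 0.000636), although on the FPKM as deposited placebo averaged 0.236 and LFD 0.212. With a constant sum the means were 0.157 in placebo and 0.291 in LFD, and with upper quartile scaling 0.125 and 0.313. The difference of estradiol from placebo, 0.10, did not pass (limma adjusted p = 0.120), nor did that from LFD, -0.14 (limma adjusted p = 0.106). The values of Igf2 rest on an estimated 7.77 to 81.6 fragments per library. Mir483, inside Igf2, was listed at 0 in all libraries, and the opposite-strand gene Igf2os was above 0 in 2 libraries.

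The ratio of Igf1 to Igf2 within a library, which no scaling between libraries changes, was 23.2 ± 7.29 in LFD, 43.2 ± 7.84 in placebo and 35.3 ± 4.60 in estradiol (SD, n = 5 each). LFD libraries ran from 16.5 to 32.9 and placebo libraries from 33.8 to 54.7, with no overlap. Estradiol libraries, 29.9 to 42.1, overlapped both.

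Igf2r was the gene called higher in placebo. It lies at chr17:12682406-12769664 on the minus strand, downstream of the window with the 2 TCACGTGA copies shown above. It read 1.73, 1.97, 1.82, 1.93 and 1.95 scaled FPKM in LFD mice 1 to 5. In placebo mice 1 to 5 it read 3.87, 4.24, 4.50, 2.91 and 3.80, and in estradiol mice 1 to 5 it read 2.56, 1.86, 2.16, 2.04 and 1.98. All placebo libraries were above all others, with the lowest placebo value, that of mouse 4, still above the highest estradiol value, that of mouse 1. Igf2r rose from 1.88 ± 0.103 to 3.87 ± 0.603, a ratio of means of 2.06 and a log2 fold change of 0.75 (SE 0.084, limma adjusted p = 5.16e-06). It fell under estradiol to 2.12 ± 0.269, by 0.64 on the log2 scale (SE 0.084, limma adjusted p = 4.62e-05). Estradiol against LFD gave 0.11, with a 95% interval from -0.065 to 0.29 (limma adjusted p = 0.470). The rise against LFD passed in all 28 alternatives, and the fall under estradiol passed in 27, the exception being the FPKM as deposited (-0.94, limma adjusted p = 0.147, range over the alternatives 3.03e-06 to 0.147). By rank within a library Igf2r moved from a median percentile of 52.9 in LFD to 77.6 in placebo and 55.5 in estradiol.

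Airn, the antisense RNA of the imprinted Igf2r locus, overlaps Igf2r on the opposite strand. Whether strand entered the authors' counting was not stated in the sources at hand, so reads of Igf2r and Airn cannot be told apart with certainty. Airn read 1.24 ± 0.380 in LFD, 1.49 ± 0.287 in placebo and 1.66 ± 0.302 in estradiol, and it did not pass in any comparison (limma adjusted p 0.261, 0.566 and 0.195).

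Markers of macrophages moved with Igf2r. Of 16 tested, 14 rose and 0 fell in placebo against LFD, where 21.3% of all tested genes rose. In estradiol against placebo 13 fell and 2 rose, Cd163 and Lyve1 (both chosen after their values were seen), where 16% of all tested genes fell. With lane as a term 6 fell and 1 rose. Against LFD, 6 rose and 0 fell under estradiol, where 3.95% of all tested genes rose, and 2 rose without LFD 5. Summed over all 17 markers, scaled FPKM ran from 56.9 to 136 in LFD, 204 to 588 in placebo and 91.7 to 213 in estradiol, with none of the 17 at 0 in a whole group. The 3 genes most like Igf2r over the 15 libraries were Lipa, lysosomal acid lipase (Pearson r = 0.99), Atp6v0d2, a subunit of the lysosomal proton pump (r = 0.98), and Slc37a2, a sugar-phosphate transporter (r = 0.98). Lipa averaged 2.50 ± 0.247, 14.6 ± 3.75 and 3.65 ± 1.38 in the 3 groups. These r values are over libraries that share the group differences. In bulk tissue a change in the number of cells of a type cannot be told apart from a change in RNA per cell, and the part of macrophages in the Igf2r values was not tested.

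**Figure D3:**
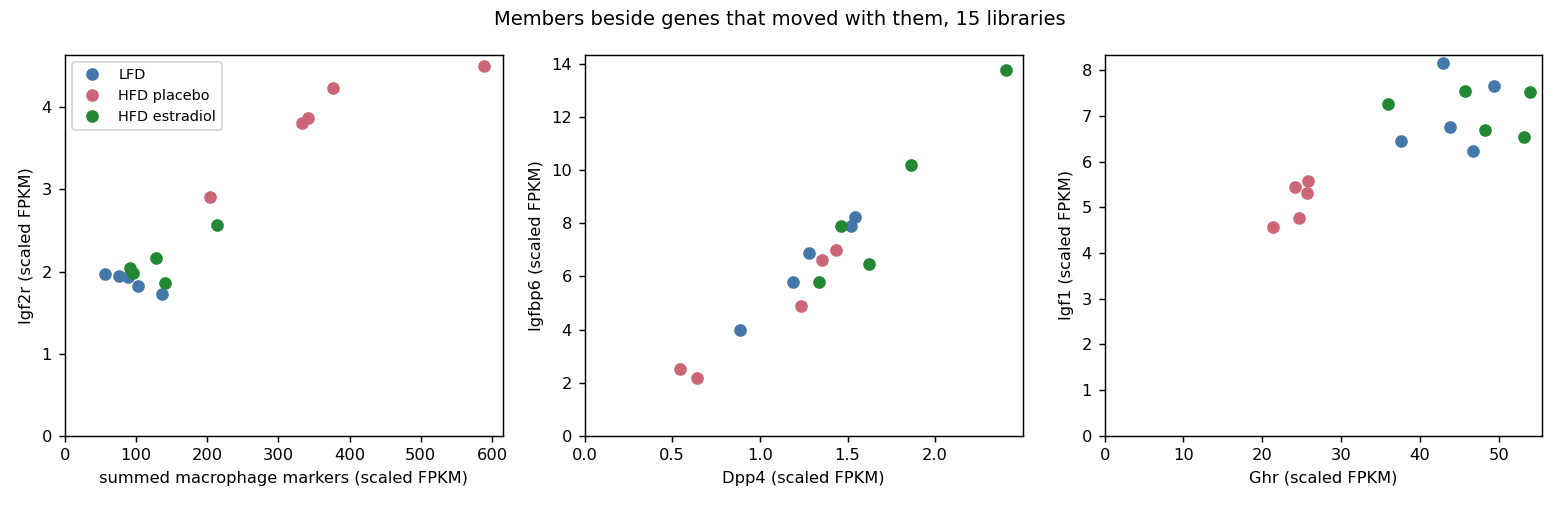
Scaled FPKM of Igf2r against the summed macrophage markers, Igfbp6 against Dpp4 and Igf1 against the growth hormone receptor Ghr, 1 point per library, coloured by group. Igf2r separates the placebo libraries, and their macrophage sums (204 to 588) overlap those of estradiol (91.7 to 213) in 1 pair, placebo 4 and estradiol 1, which hold the lowest placebo and the highest estradiol value of Igf2r. Ghr and Igf1 both separate them on this scale, and all groups overlap for Igfbp6 and Dpp4.

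Igf1r, the signalling receptor, at chr7:67952827-68233668 on the plus strand, was below the filter. Its values were 0.277 to 0.545 (median 0.485) in LFD, 0.284 to 0.417 (median 0.324) in placebo and 0.378 to 0.661 (median 0.424) in estradiol. The groups overlapped, and in the fit without a filter no difference passed (limma adjusted p 0.280, 0.199 and 0.893). The ratio of Igf1r to Igf2r within a library was 0.240 ± 0.0628 in LFD, 0.0907 ± 0.0153 in placebo and 0.223 ± 0.0365 in estradiol (SD, n = 5 each). Placebo libraries, 0.0675 to 0.108, lay below every library of LFD (0.141 to 0.315) and estradiol (0.175 to 0.261). No scaling between libraries enters this ratio.

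Igfbp4, which binds both ligands and is cut by the protease PAPP-A, was above both other groups in every estradiol library. It lies at chr11:99041244-99054392 on the plus strand. It read 12.0, 12.4, 14.9, 14.4 and 12.3 scaled FPKM in LFD mice 1 to 5. In placebo it read 9.49, 11.5, 8.76, 10.7 and 9.60, and in estradiol 20.1, 19.6, 24.3, 21.8 and 23.7. No group overlapped another: placebo was lowest and estradiol highest in all libraries. Igfbp4 rose under estradiol from 10.02 ± 1.10 to 21.9 ± 2.09, a ratio of means of 2.19. Its log2 fold change was 1.06 (SE 0.095, limma adjusted p = 2.89e-06). Of the 5615 tested genes, 44 had a larger rise and 171 a larger change in either direction. Against LFD, at 13.2 ± 1.33, estradiol was higher by 0.69 (SE 0.095, limma adjusted p = 0.000498). Placebo was lower than LFD by a log2 fold change of -0.37 (SE 0.095, limma adjusted p = 0.00557), although the difference was 0.71 on the FPKM as deposited and 0.052 after scaling to a constant sum.

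The rise of Igfbp4 over placebo was 1.03 within lane 6 (limma adjusted p = 0.00509), and it was lost only on the FPKM as deposited, at 0.73 (limma adjusted p = 0.623, range over 28 alternatives 1.28e-06 to 0.623). Against LFD, lane and group coincide. With lane as a term, which rests on the placebo group alone, that difference was 0.65 with a limma adjusted p of 0.0522 (range over 27 alternatives 0.000206 to 0.127). By rank within a library Igfbp4 stood at the 91.4th to 94.2nd percentile in placebo, the 94.7th to 96.1st in LFD and the 97.4th to 97.9th in estradiol, again with no overlap. The ratio of Igfbp4 to Igf1 was 1.89 ± 0.299 in LFD, 1.96 ± 0.284 in placebo and 3.09 ± 0.304 in estradiol, and every estradiol library (2.77 to 3.54) was above every other (1.47 to 2.42).

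The genes most like Igfbp4 over 15 libraries were Ntrk2, the receptor of brain-derived neurotrophic factor (Pearson r = 0.95), Tenm4, a teneurin (r = 0.95), and Ndrg2 (r = 0.94). Ntrk2 averaged 3.45 ± 0.158 in LFD, 2.13 ± 0.400 in placebo and 5.67 ± 0.588 in estradiol.

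Igfbp7, a binding protein with low affinity for IGFs that is known from blood vessels, lies at chr5:77349240-77408041 on the minus strand. It read 25.7, 19.2, 19.6, 20.9 and 19.5 scaled FPKM in LFD mice 1 to 5. In placebo it read 26.7, 20.99, 16.0, 17.5 and 23.5, and in estradiol 37.9, 35.9, 33.1, 24.8 and 37.6. Estradiol libraries were above the others except for mouse 4, which lay within their range. Igfbp7 rose under estradiol from 20.9 ± 4.34 to 33.8 ± 5.39, by 0.68 (SE 0.146, limma adjusted p = 0.00228). Estradiol was also higher than LFD, at 20.98 ± 2.71, by 0.66 (SE 0.146, limma adjusted p = 0.0124). Placebo and LFD differed by -0.019, with a 95% interval from -0.33 to 0.29 (limma adjusted p = 0.928), a difference that became 1.08 as deposited, 0.41 with a constant sum and 0.050 with upper quartile scaling. The rise over placebo did not pass with a constant sum (0.62, limma adjusted p = 0.0647) or within lane 6 (0.70, limma adjusted p = 0.0555, range over 28 alternatives 0.000853 to 0.788). With lane as a term the excess over LFD was 0.69 and missed the threshold (limma adjusted p = 0.158, range over 27 alternatives 0.00226 to 0.158).

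Of 13 endothelial markers tested, 1 rose and 0 fell under estradiol against placebo, 0 rose and 3 fell in placebo against LFD, and 0 passed in estradiol against LFD. Over all tested genes 14.3% rose in the first of these comparisons and 22% fell in the next. The 14 listed summed to 38.3 to 41.9 in LFD, 32.8 to 46.8 in placebo and 33.4 to 40.8 in estradiol. The genes most like Igfbp7 were Il6st, the shared receptor subunit of the interleukin 6 family (Pearson r = 0.88 over 15 libraries), F13a1, the coagulation factor XIII A chain (r = 0.87), and Ccl24, a chemokine (r = 0.87). On the opposite strand Igfbp7 overlaps Polr2b, a subunit of RNA polymerase II, which read 1.86 ± 0.111, 1.68 ± 0.0843 and 1.97 ± 0.107 in LFD, placebo and estradiol.

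Igfbp5, which also binds to the extracellular matrix, lies at chr1:72857932-72874884 on the minus strand, with 5457 bases between it and Igfbp2. It read 7.96, 5.46, 9.30, 8.29 and 7.89 scaled FPKM in LFD mice 1 to 5. In placebo it read 5.98, 7.23, 3.70, 5.07 and 5.32, and in estradiol 14.4, 6.97, 11.6, 12.5 and 8.44. Estradiol was highest on average, and its mouse 2 lay within the placebo range. Igfbp5 rose under estradiol from 5.46 ± 1.29 to 10.8 ± 3.02, by 0.85 (SE 0.184, limma adjusted p = 0.00229), and passed in 27 of 28 alternatives, the FPKM as deposited excepted (0.55, limma adjusted p = 0.739). Against LFD, at 7.78 ± 1.42, placebo differed by -0.45 (limma adjusted p = 0.0588) and estradiol by 0.40 (limma adjusted p = 0.222). The placebo difference passed in 5 of 28 alternatives, among them those without LFD 2, placebo 2, estradiol 1 or estradiol 2. Its lowest limma adjusted p was 0.0245 (range over 28 alternatives 0.0245 to 0.836), and the difference was 0.55 on the FPKM as deposited.

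Igfbp6, which prefers IGF2, lies at chr15:102144362-102149511 on the plus strand and had the largest standard error of the tested genes of the system. It read 6.89, 3.98, 8.25, 5.81 and 7.90 scaled FPKM in LFD mice 1 to 5. In placebo it read 7.01, 6.62, 2.52, 2.16 and 4.90, and in estradiol 13.8, 6.47, 10.2, 7.90 and 5.79. All groups overlapped. Igfbp6 rose under estradiol from 4.64 ± 2.25 to 8.83 ± 3.24, by 0.84 (SE 0.277, limma adjusted p = 0.0301). This call was lost in 10 of 28 alternatives. Leaving out placebo 3, placebo 4, estradiol 1 or estradiol 3 gave limma adjusted p values up to 0.0825, leaving out both lane 6 placebo libraries gave 0.117, and lane as a term gave 0.0536 with a difference of 1.13 (range over 28 alternatives 0.0154 to 0.712). Against LFD, at 6.57 ± 1.73, neither placebo (-0.49, limma adjusted p = 0.167) nor estradiol (0.35, limma adjusted p = 0.497) passed.

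Dpp4, a surface peptidase that marks progenitors of the adipose interstitium, was the gene most like it (Pearson r = 0.97 over 15 libraries), followed by Gpr133, an adhesion receptor (r = 0.95), and Efemp1, an extracellular matrix protein (r = 0.93). Dpp4 averaged 1.28 ± 0.271, 1.04 ± 0.417 and 1.74 ± 0.422 in LFD, placebo and estradiol. Igfbp6 was itself among the 3 genes most like Igfbp5 (r = 0.88), with Sh3d19 (r = 0.88) and Ssbp3 (r = 0.87). Of 16 progenitor and fibroblast markers, 9 rose and 0 fell in placebo against LFD, and 3 rose and 4 fell under estradiol against placebo, where 21.3% of all tested genes rose in the former and 14.3% rose and 16% fell in the latter. In estradiol against LFD 4 rose and 0 fell, where 3.95% of all tested genes rose. Their sum ran from 113 to 172 in LFD, 163 to 278 in placebo and 184 to 290 in estradiol, and its part in the Igfbp5 and Igfbp6 values was not tested.

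Igfbp3, the main IGF carrier of blood, at chr11:7206086-7213923 on the minus strand, was below the filter. It ran from 0.457 to 0.933 (median 0.512) in LFD, 0.409 to 0.831 (median 0.706) in placebo and 0.595 to 1.07 (median 0.997) in estradiol. Igfbp2, at chr1:72824503-72852474 on the plus strand and known to be made by adipocyte precursors, ran from 0.0755 to 0.610 in LFD, 0.0436 to 0.308 in placebo and 0.0205 to 0.147 in estradiol. In the fit without a filter Igfbp3 did not pass in any comparison (limma adjusted p 0.961, 0.331 and 0.451), nor did Igfbp2 (0.268, 0.743 and 0.284). Igfbp2 rested on an estimated 0.953 to 37.3 fragments per library. Its estradiol minus LFD difference was -0.24, with an unadjusted 95% interval from -0.45 to -0.028. Igfbp1, a liver binding protein outside the 10 genes, was listed at 0 in all libraries.

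Summed over the 6 binding proteins, scaled FPKM was 49.5 ± 4.96 in LFD, 41.9 ± 7.67 in placebo and 76.3 ± 8.01 in estradiol (SD, n = 5 each). Every estradiol library (67.8 to 87.4) was above every other (31.6 to 53.8). The ratio of summed binding proteins to summed ligands, free of scaling between libraries, was 6.74 ± 0.632 in LFD, 7.97 ± 1.36 in placebo and 10.5 ± 1.10 in estradiol. Estradiol libraries ran from 8.76 to 11.7, LFD from 5.98 to 7.57 and placebo from 6.66 to 9.78, and estradiol overlapped placebo and not LFD. Igfbp7 made up 42.5% ± 4.46 in LFD, 49.9% ± 3.78 in placebo and 44.3% ± 6.03 in estradiol, and Igfbp4 26.8% ± 3.02, 24.5% ± 4.30 and 28.9% ± 3.56. The mean shares of Igfbp5 were 15.6%, 12.99% and 14.1%, and those of Igfbp6 13.1%, 10.6% and 11.4%. Igfbp3 averaged at most 1.65% and Igfbp2 at most 0.593%. The Igfbp2 share ran from 0.182% to 1.14% in LFD and from 0.0294% to 0.168% in estradiol, without overlap. The other ranges of these shares overlapped between every pair of groups. Igfbp2 rested on an estimated 0.953 to 10.5 fragments in LFD and 0.953 to 8.65 in estradiol. It was below the filter, and its level did not pass between these 2 groups (limma adjusted p = 0.284).

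**Figure D4:**
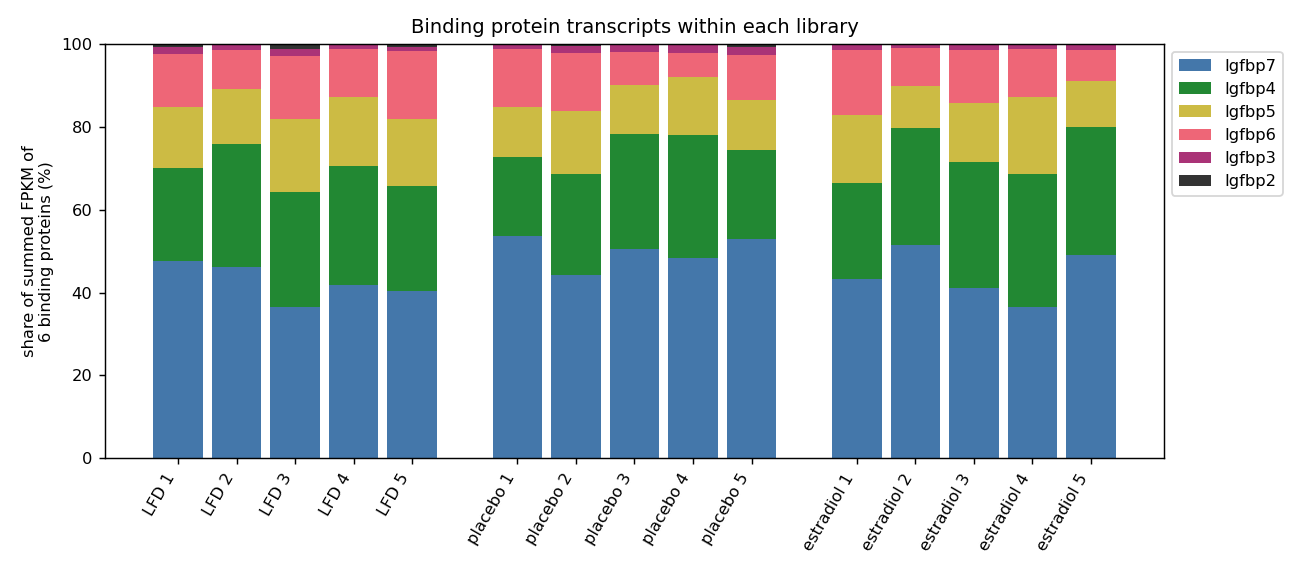
Share of each binding protein (percent, stacked from 0 to 100) in the summed FPKM of the 6, for each of the 15 libraries. Igfbp7 is the largest part in every library and Igfbp4 follows, with group means of 42.5% to 49.9% and 24.5% to 28.9%.

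Proteases and carriers of IGFs, from a list of 12 genes, were mostly below the filter. Of 4 tested, Adam12, a protease that cuts Igfbp3 and Igfbp5, rose in placebo against LFD from 0.589 ± 0.0959 to 1.72 ± 0.167 (0.77, limma adjusted p = 3.05e-06) and fell under estradiol to 0.743 ± 0.225 (-0.65, limma adjusted p = 3.09e-05). Htra1, another protease of binding proteins, rose under estradiol from 5.14 ± 0.968 to 8.74 ± 1.53 (0.67, limma adjusted p = 0.00135), and was 0.94 above LFD (limma adjusted p = 0.000689). The Htra1 differences became 0.51 and 0.68 with lane as a term, and neither passed. Htra3 and Igfals, which carries IGF complexes in blood, did not pass in any comparison. Pappa, the gene of PAPP-A, was also below the filter and averaged 0.0252 ± 0.00935, 0.0308 ± 0.0236 and 0.0339 ± 0.0121 in LFD, placebo and estradiol. Stc2, an inhibitor of PAPP-A that was chosen after its values were seen, ran from 0.416 to 1.02 in LFD, 0.0938 to 0.200 in placebo and 0.287 to 0.665 in estradiol, with no placebo library overlapping the others. This separation is of scaled FPKM and does not hold on the FPKM as deposited. Stc2 was below the filter.

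Downstream of both the IGF and the insulin receptor, 27 of 32 listed relay genes were tested. In placebo against LFD 6 rose and 10 fell, in estradiol against placebo 7 rose and 5 fell, and in estradiol against LFD 2 rose and 2 fell. Over all tested genes 43.3%, 30.4% and 7.69% were called in these comparisons. The list had medians of -0.13, 0.079 and -0.043, beside -0.014, 0.0082 and -0.0049 over all tested genes. On the FPKM as deposited the first count became 11 higher and 0 lower, and with a constant sum 7 higher and 2 lower. With lane as a term the second became 4 higher and 1 lower and the third 0 higher and 1 lower. Irs1, the adaptor that carries the signal from both receptors, read 2.07 ± 0.329 in LFD, 0.687 ± 0.107 in placebo and 3.86 ± 1.04 in estradiol. It fell by 0.86 against LFD (limma adjusted p = 2.50e-05) and rose by 1.50 under estradiol (limma adjusted p = 8.94e-07), ending 0.64 above LFD (limma adjusted p = 0.00304). With lane as a term the last of these was 0.49 and did not pass. The Irs1 fall against LFD did not pass on the FPKM as deposited, where 0 relay genes were lower. Insr, the insulin receptor, fell from 2.61 ± 0.281 to 1.43 ± 0.167 (-0.57, limma adjusted p = 6.72e-06) and rose to 2.23 ± 0.161 under estradiol (0.41, limma adjusted p = 0.000217), although its first difference was 0.27 on the FPKM as deposited.

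Among the other relay genes Foxo1, a transcription factor held back by the pathway, fell in placebo against LFD by 0.42 (limma adjusted p = 7.31e-05), although this difference was 0.28 on the FPKM as deposited, and rose under estradiol by 0.41 (limma adjusted p = 0.000178). Grb10, an adaptor that dampens both receptors, rose under estradiol by 0.61 over placebo (limma adjusted p = 0.000181) and 0.49 over LFD (limma adjusted p = 0.00561). The latter was 0.51 and did not pass once lane was a term. Pik3cb, a catalytic subunit of PI3 kinase, was lower in estradiol than in LFD (-0.33, limma adjusted p = 0.0173), which likewise did not pass with lane in the fit (-0.45).

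The growth hormone axis, which drives Igf1, was represented by 5 of 10 listed genes. In placebo against LFD 1 rose and 2 fell, where 43.3% of all tested genes were called. In estradiol against placebo 2 rose and 1 fell, where 30.4% were called. Jak2 and Stat5b, also tested, did not pass in any comparison. Ghr, the growth hormone receptor, was abundant, at 44.1 ± 4.43 in LFD, 24.3 ± 1.77 in placebo and 47.4 ± 7.25 in estradiol. Every placebo library (21.4 to 25.8) was below every LFD (37.6 to 49.4) and estradiol library (35.9 to 53.9). Ghr fell in placebo by 0.83 (limma adjusted p = 3.24e-05), a difference that was 0.30 on the FPKM as deposited, and rose under estradiol by 0.92 (limma adjusted p = 2.81e-05). Stat5a, which carries the growth hormone signal to the nucleus, fell by 0.31 (limma adjusted p = 0.00913), although this difference was 0.42 as deposited, and rose by 0.51 under estradiol (limma adjusted p = 0.000327). Ptpn6, a phosphatase of blood cells that acts on this pathway, rose by 1.00 in placebo (limma adjusted p = 0.000563) and fell by 0.94 under estradiol (limma adjusted p = 0.00151), a fall that was 0.63 and did not pass once lane was a term. No gene of the axis passed in estradiol against LFD, where 7.69% of all tested genes were called.

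Ghr and Igf1 were also set beside adipocyte markers, of which 11 of 14 fell and 1 rose in placebo against LFD, and 10 rose and 1 fell under estradiol against placebo. Over all tested genes 22% fell in the former comparison and 14.3% rose in the latter. With a constant sum the first count was 4 lower and 1 higher, and with lane as a term the second was 6 higher and 1 lower. In estradiol against LFD 1 adipocyte marker fell and 0 rose, where 3.74% of all tested genes fell. Their sum ran from 1765 to 2710 in LFD, 979 to 1633 in placebo and 1733 to 2443 in estradiol, so the placebo libraries were lowest there too. The sum leans on its most abundant genes: Cfd alone averaged 711 in LFD, 49.4 in placebo and 514 in estradiol. The part of adipocyte content in the Igf1, Igfbp4 and Ghr values was not tested. The genes most like Igf1 over the 15 libraries were Tiparp, a member of the poly-ADP-ribose polymerase family (Pearson r = 0.92), Rfng, a modifier of Notch (r = 0.91), and Vnn3, a vanin (r = 0.91), and between Igf1 and Igf2r r was -0.86. Among the binding proteins Igfbp4 had r = 0.80 with Igfbp5 and 0.74 with Igfbp7, over libraries that again share the group differences.

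FOXO target genes, which insulin and IGF signals hold down, gave 1 higher and 3 lower of 10 tested in placebo against LFD, near the 43.3% called over all tested genes. Under estradiol against placebo 5 were higher and 0 lower, where 14.3% of all tested genes were higher and 16% lower, and in estradiol against LFD 0 passed. Klf15 fell by 0.75 (limma adjusted p = 4.62e-05) and rose by 0.50 (limma adjusted p = 0.00238), and Pnpla2, the adipose triglyceride lipase, fell by 1.12 (limma adjusted p = 6.09e-05), although this was 0.0045 as deposited, and rose by 0.94 (limma adjusted p = 0.00052). Pnpla2 is also in the list of adipocyte markers. Under estradiol 1 of the 10 passed with lane as a term and 0 within lane 6, and without LFD 5 the counts in placebo against LFD were 0 higher and 2 lower.

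Of the 7 imprinted neighbours of Igf2 and Igf2r, 3 were tested. Cdkn1c, a cell cycle inhibitor near Igf2, averaged 0.931 ± 0.203 in LFD, fell to 0.667 ± 0.0296 in placebo (-0.21, limma adjusted p = 0.0417), although this difference was 0.38 as deposited and 0.0054 with a constant sum, and rose to 1.196 ± 0.207 under estradiol (0.39, limma adjusted p = 0.00116). Cdkn1c missed the threshold, at -0.22, once lane was a term. Slc22a3, a cation transporter near Igf2r, was lower than LFD in placebo (-0.22, limma adjusted p = 0.0402) and in estradiol (-0.28, limma adjusted p = 0.0478). Neither passed with upper quartile scaling or without LFD 5, and the Slc22a3 differences were 0.49 and 0.14 as deposited. H19, next to Igf2, was at or below 0.136 scaled FPKM in every library.

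The other marker lists had few tested genes, so their counts say little. Of 7 tested pericyte and smooth muscle markers, 1 rose and 1 fell in placebo against LFD, 1 rose and 1 fell in estradiol against placebo, and 1 fell in estradiol against LFD. The 1 tested mesothelial marker fell in placebo against LFD and did not pass elsewhere. Of 2 tested lymphocyte markers, 2 fell in placebo against LFD and 1 fell in estradiol against LFD. With lane as a term 1 and 0 of them fell. Over all tested genes 21.3% rose and 22% fell in placebo against LFD. The shares were 14.3% and 16% in estradiol against placebo, and 3.74% fell in estradiol against LFD.

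**Figure D5:**
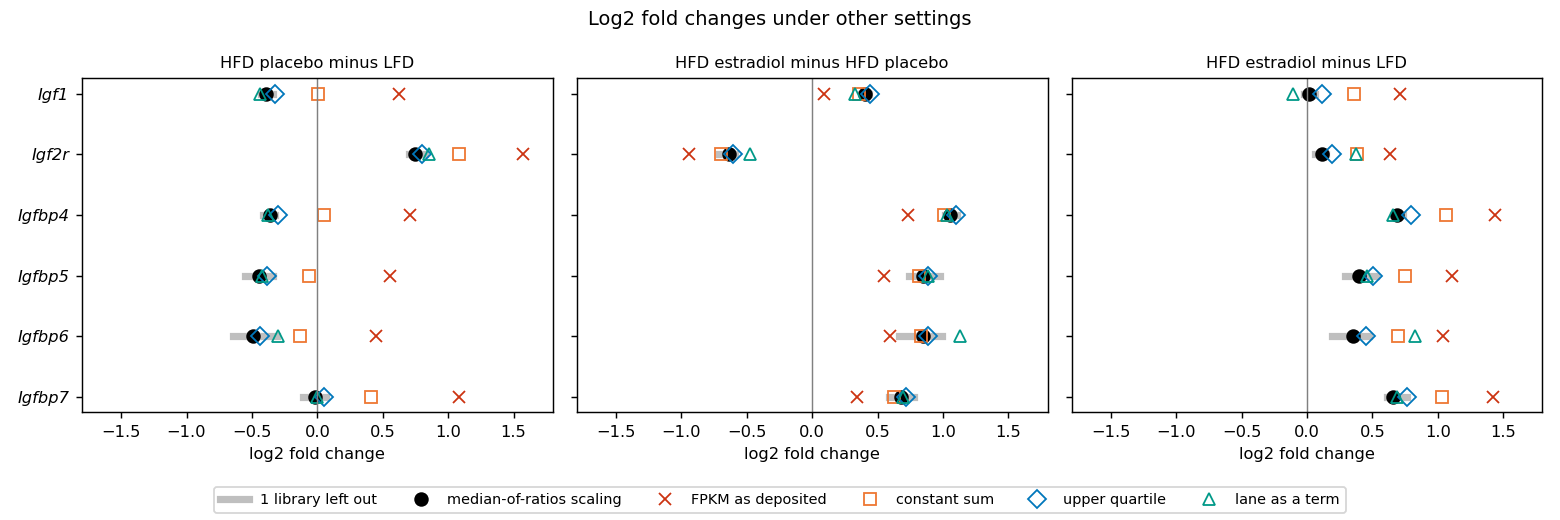
Log2 fold change (horizontal axis) of the 6 tested genes in the 3 comparisons under the main scaling, 3 other scalings and a fit with lane as a term, with grey bars for the range when 1 library is left out. In the first panel Igf1 and Igfbp4 cross 0 on the FPKM as deposited (0.62 and 0.71) and with a constant sum (0.0013 and 0.052), whereas Igf2r stays above 0 under every setting drawn.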

How the data were processed

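RNA of periprostatic fat from 15 mice was profiled, 1 library per mouse, with 5 mice in each of 3 groups named in the labels. Stranded libraries were made from total RNA (integrity number over 7) after ribosomal depletion, per the labels' protocols. STAR, Cufflinks and mm10 are named, without versions, per the submitters' processing notes, while the annotation and any use of strand are not given in the sources used here. FPKM by gene symbol, 1 file per library, are what the authors deposited. They hold no counts, so depth was estimated only: in 1636 genes with a single transcript over 2000 bases, with 200 bases taken off each, 50.2% to 70.7% of low values lay within 2% of whole multiples of a unit.

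Each library was divided by a median-of-ratios factor (0.481 to 3.23) over 5874 genes detected in all libraries and averaging 1 FPKM or more. The 5615 genes reaching 1 scaled FPKM in 5 or more libraries were tested as log2(scaled FPKM + 1), a pseudocount of 1, in R 4.3.3 using limma 3.58.1 (trend and robust moderation), all 15 libraries and group as the only factor. P-values were adjusted over these genes by the Benjamini-Hochberg method, with a threshold of 0.05, and the log2 scale is not that of the deposited values. P-values set a group difference against the spread between libraries, 1 per mouse, moderated across genes. In the placebo group this spread includes that between lanes 5 and 6. On simulated data for HFD placebo minus LFD (5533 genes) the procedure recovered 81.1% of 95 genes with a log2 change of 0.5. It recovered 98.0% of 98 with one of 1.0, and 6.49% of its calls were false. The simulation changed few genes, as many up as down, drew each gene independently and had no lane effect. Its rates need not hold for these data, where 43.3% of tested genes were called in this comparison.

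The 10 genes and the 13 lists used beside them were chosen with earlier results of these data known. All 10 genes are described. Of each list up to 4 tested genes with the smallest adjusted p in a comparison could be named, and for each tested gene of the system the 3 tested genes with the highest Pearson correlation, predicted genes and small RNAs left out. Cd163, Lyve1, Pappa, Stc2, Igfbp1, H19, Spink3, Pbsn, Msmb, Mir6236 and genes that overlap the 10 fall outside this rule. Lists were the IGF protease axis, the signal relay, the growth hormone axis, FOXO targets, imprinted neighbours, and markers of macrophages, progenitors and fibroblasts, adipocytes, endothelium, pericytes and smooth muscle, mesothelium, lymphocytes and prostate epithelium. Adgre1 was found as Emr1. Gene positions are from GENCODE vM21 (GRCm38). Alternatives were 3 other scalings, pseudocounts of 0.1 and 0.5, no filter and a filter of 2, each library left out, the 2 groups compared alone, a replicate block, lane as a term or within a lane, and limma without trend and robust moderation. Leaving out both lane 6 placebo libraries, the list counts under other settings, and the levels of the 4 genes below the filter under other scalings, were added after seeing the data. Values of 1 gene of the signal relay list are not reported here, though it is counted in the list.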

Additional observations from a re-analysis of the deposited data

Results flagged for a closer look

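Of 54 sets of 5 libraries checked (the level of each of the 10 genes, the share of each binding protein and 2 ratios, in each group), 2 held a library whose gap to its nearest neighbour was large for the range of the group, above Dixon's critical value of 0.710. Chance gives such a gap in about 1 of 20 sets. Igfbp7 in LFD 1 was 25.7 scaled FPKM, beside 19.2 to 20.9 in the other LFD libraries. The share of Igfbp3 in placebo 1 was 0.823%, beside 1.70% to 1.95% in the other placebo libraries.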

How the results depend on the processing

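The cause of the changes given here was not tested. In HFD placebo minus LFD, the differences of Igf1, Igfbp4, Igfbp5, Igfbp6 and Igfbp7 turned to 0.62, 0.71, 0.55, 0.45 and 1.08 on the FPKM as deposited, and those of Igf1, Igfbp4 and Igfbp7 to 0.0013, 0.052 and 0.41 with a constant sum. That of Igfbp7, near 0, was 0.050 with upper quartile scaling and ran from -0.11 to 0.068 when 1 library was left out, being 0.053 without LFD 1, 0.068 without placebo 3 and 0.037 without placebo 4. The difference of Igf1 in HFD estradiol minus LFD, also near 0, was -0.11 with lane as a term and ran from -0.022 to 0.063 when 1 library was left out, being -0.022, -0.012, -0.0042 and -0.0033 without LFD 4, LFD 5, estradiol 3 or estradiol 4. The genes called in HFD placebo minus LFD numbered 3908 with no filter and 1461 with a filter of 2. In HFD estradiol minus HFD placebo they numbered 276 as deposited, 828 with a constant sum, 2606 with no filter, 1052 with a filter of 2, 711 with lane as a term and 681 within lane 6. In HFD estradiol minus LFD they numbered 39 as deposited and 162 with lane as a term. Of the 6 tested genes of the system, 1 was called in HFD placebo minus LFD with a constant sum. In HFD estradiol minus HFD placebo, 0 were called as deposited, 3 with a constant sum and 3 within lane 6. In HFD estradiol minus LFD, 0 were called as deposited and 0 with lane as a term. Higher genes were 99.4%, 4.71% and 100% of the calls as deposited, 91.5%, 31.3% and 95.03% with a constant sum, 61.0%, 51.98% and 78.0% with upper quartile scaling and 49.2%, 47.2% and 51.4% in the main scaling, in the order of the 3 comparisons. With Igfbp7 left out of the sum, the shares in LFD, placebo and estradiol were 1.011%, 0.683% and 0.216% for Igfbp2, 2.30%, 3.28% and 2.09% for Igfbp3, 46.7%, 48.8% and 52.3% for Igfbp4, 27.2%, 25.9% and 24.997% for Igfbp5, and 22.8%, 21.3% and 20.4% for Igfbp6. With the mouse number as a replicate block, the calls of the 6 genes stayed at 3, 6 and 2 and all calls at 2427, 1685 and 431. The numbers name different mice and do not pair libraries: over 15 same-numbered pairs the deviations correlated from -0.21 to 0.36, with 5 pairs over 0.1, and 5 libraries correlated best with their own number. By estimated fragments, depth limits Igfbp2 and Igf2 most, and the 4 genes below the filter were tested in the unfiltered fit only.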
